A study of Mus musculus with 6 samples.

Results

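The 6 metabotropic glutamate receptor genes Grm2, Grm3, Grm4, Grm5, Grm7 and Grm8 were followed in RNA of mouse cerebral cortex. They were taken by symbol from a table of 54532 genes, and all 6 were present and entered the test. The compared groups were 3 libraries labelled as knockout of Fam69c (Fam69c-/-, written KO-labelled here) and 3 wild-type (WT) libraries, all from mice 12 months old. The series' title places Fam69c, a kinase-like protein of the secretory pathway, beside stress granules and the inflammasome. How the knockout allele was made, the strain and whether each library came from a separate mouse are not stated in the sources used here, so p-values measure the spread between libraries, which may be technical.

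Metabotropic glutamate receptors are G protein-coupled receptors that sense glutamate through a large extracellular domain shaped like a clam shell, and they tune synapses more slowly than the glutamate-gated ion channels. Group I, which includes Grm5, couples to Gq and phospholipase C and sits mostly around the postsynaptic density. Group II (Grm2 and Grm3) and group III (Grm4, Grm6, Grm7 and Grm8) couple to Gi and Go, lower cyclic AMP and mostly restrain transmitter release. Grm3 is made by astrocytes as well as neurons, and Grm6 is known for its role in retinal bipolar cells.

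Levels are FPKM, reads scaled to exon length and library size, so genes of different length can be set side by side within a limit. The length is that of all annotated exons together, from 3049 bases in 1 transcript for Grm3 to 10247 bases in 7 transcripts for Grm5. Levels set side by side between genes therefore depend on the annotation. From 30935326 to 35065884 reads stood behind each library, and each of the 6 receptor genes was covered by 591 to 6588 reads per library. Fam69c itself read 1.54, 1.84 and 1.42 FPKM in the KO-labelled libraries, against 2.03, 1.57 and 2.08 FPKM in WT. The groups overlapped, so the RNA of the targeted gene does not check the labels. Cortical excitatory neuron markers summed to 836.1 to 869.7 FPKM in the KO-labelled libraries and 836.2 to 880.5 FPKM in WT, with 6 of 6 markers above 0 in every library. WT replicate 3 and KO-labelled replicate 1 stood apart in markers of striatal projection neurons. These 10 genes summed to 152.1, 295.8 and 255.4 FPKM in KO-labelled replicates 1, 2 and 3, against 313.7, 316.5 and 109.1 FPKM in WT replicates 1, 2 and 3. WT replicate 3 was also the highest library in immediate early genes, markers of recent neuronal activity. These 10 genes summed to 306.6, 347.3 and 434.1 FPKM in KO-labelled replicates 1, 2 and 3, against 339.3, 382.6 and 625.8 FPKM in WT replicates 1, 2 and 3. The log2 fold change, KO-labelled over WT, was below 0 for 10 of 10 of them, against 8156 of all 15694 genes tested. Its median was -0.32, beside -0.0042 for all genes tested, and 0 passed the adjusted limma threshold. The sums of WT replicates 1 and 2 lay inside the KO-labelled range. The higher level of the sum in WT thus rests on WT replicate 3. Arc and Egr1 were the most abundant of the 10, so the sum says less of the other genes. At an unadjusted limma p under 0.05 stood 1 of 10, Egr1 (0.0381), against 3.82% of all genes. Egr1 read 75.2, 78.0 and 94.7 FPKM in the KO-labelled libraries, against 90.0, 103.8 and 129.2 FPKM in WT. For this gene WT replicate 2 also lay above all KO-labelled libraries. The 3 markers of the dentate gyrus of the hippocampus summed to 3.19, 2.01 and 2.05 FPKM in the KO-labelled libraries, against 2.51, 2.45 and 3.43 FPKM in WT. The sum was highest in WT replicate 3 and KO-labelled replicate 1. Of these markers, C1ql2 was highest in the same 2 libraries, at 1.81 and 1.09 FPKM in that order. Prox1 read 1.60 FPKM in WT replicate 3, its lowest library, and 2.06 FPKM in KO-labelled replicate 1, its highest. Dsp read at most 0.046 FPKM. The difference of each of the 6 receptor genes is therefore also given without WT replicate 3 and KO-labelled replicate 1.

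For 0 of the 6 receptor genes did the difference between the groups pass the test applied. With limma on log2(FPKM + 0.5), 0 of 6 passed a Benjamini-Hochberg adjusted p of 0.05, against 0% of all 15694 genes tested (0 genes), and voom on the recovered reads also called 0. At an unadjusted p under 0.05 stood 1 of 6, Grm3, against 3.82% of all genes (599 genes). The KO-labelled group was higher for 4 receptors and lower for 2, and the median log2 fold change was 0.028, beside -0.0042 for all genes tested. The groups did not overlap for 1 of the 6, Grm3, against 8.87% of all genes; all KO-labelled values were higher for 1 receptor, against 4.17% of all genes, and lower for 0, against 4.7%. Permuting 3 against 3 libraries exactly gives no p under 0.1.

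**Figure D1:**
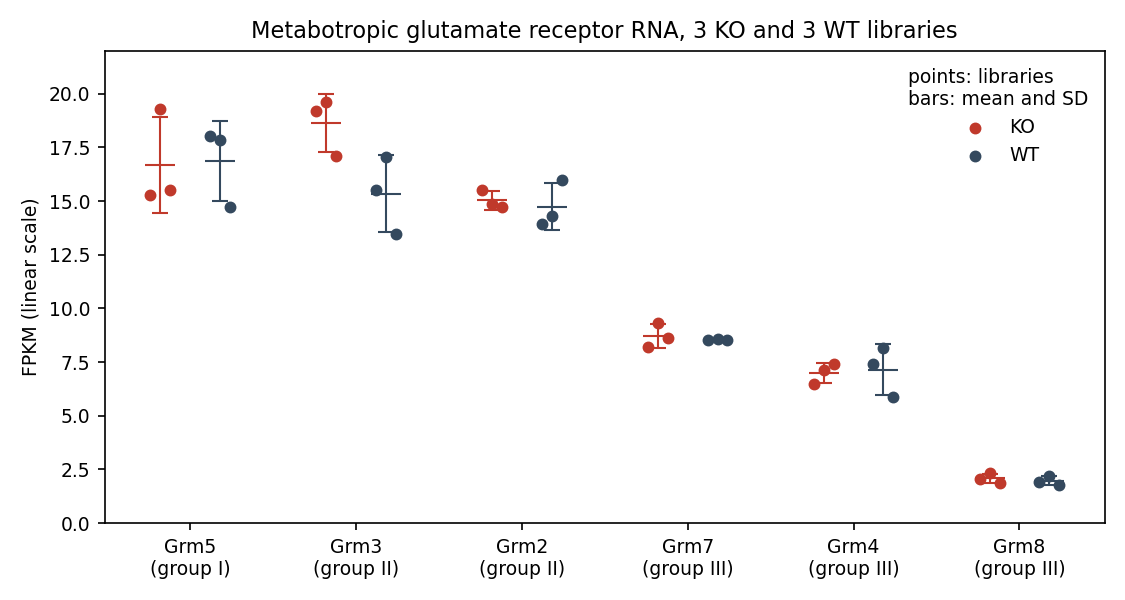
FPKM on a linear axis for the 6 receptor genes, with points for the 3 KO-labelled libraries (left, red) and the 3 WT libraries (right, dark) and bars for mean and SD. Grm3, Grm5 and Grm2 lie between 13.5 and 19.6 FPKM, Grm8 lies near 2.0 FPKM, and only for Grm3 do all KO-labelled points stand above all WT points.

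The order of the levels had an upper and a lower tier. Over all 6 libraries Grm3 averaged 17.0 FPKM, Grm5 16.8 FPKM and Grm2 14.9 FPKM, and the ranges of these 3 genes overlapped. Grm7 followed at 8.63 FPKM, with a range of 8.22 to 9.32 FPKM that lay wholly below that of Grm2, whose lowest library held 13.9 FPKM. Grm4 averaged 7.07 FPKM and was below Grm7 in 6 of 6 libraries. Grm8 was the lowest of the 6 at 2.03 FPKM, also in 6 of 6 libraries. The places of Grm7, Grm4 and Grm8 were thus the same in every library, while the top place varied. Grm3 was highest in all 3 KO-labelled libraries, whereas the highest was Grm5 in WT replicates 1 and 2 and Grm2 in WT replicate 3. By mean level Grm3 ranked 3021 among the 15694 genes tested and Grm8 ranked 11191.

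Grm6, the group III receptor of the retina, was covered by at most 1 read in any library and lay below the filter of a mean of 0.5 FPKM. Summed by group, group II held 34.7, 34.5 and 31.8 FPKM in the KO-labelled libraries, against 29.4, 31.4 and 29.5 FPKM in WT. All 3 KO-labelled sums were above all 3 WT sums, with 31.8 and 31.4 FPKM as the nearest values. Grm3 was the gene of the pair whose own groups did not overlap, so the sum is no separate result. Sums of other gene pairs were not formed, so no share over all genes stands beside it. Group III without Grm6 held 16.8, 18.8 and 17.9 FPKM in the KO-labelled libraries, against 17.9, 19.0 and 16.2 FPKM in WT, with overlapping groups. Of the summed level of the 6 genes, group II made up 45.0% to 52.0% over the 6 libraries and group III 25.1% to 27.8%.

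Grm5 encodes the group I receptor mGlu5, which drives calcium release after synaptic activity and is abundant in forebrain and striatum (mm10 chromosome 7, 87584168 to 88134907, plus strand, 10247 exon bases). It read 15.28, 19.28 and 15.52 FPKM in KO-labelled replicates 1, 2 and 3, against 18.04, 17.85 and 14.71 FPKM in WT replicates 1, 2 and 3. KO-labelled replicate 2 was the highest library and WT replicate 3 the lowest, and the groups overlapped throughout. On the log2 scale KO-labelled minus WT was -0.017 ± 0.11 (SE), 95% interval -0.29 to 0.25 (limma adjusted p = 0.999). Without WT replicate 3 and KO-labelled replicate 1 it was -0.051, with an interval from -0.33 to 0.23. The sign turned under 8 of 18 other settings, some of which cannot change an estimate. The lowest 2 libraries for Grm5 were the 2 that were low in striatal markers, followed by KO-labelled replicate 3. In bulk tissue, fewer cells of a type and less RNA per cell cannot be told apart, and the part of striatal tissue in the spread of Grm5 was not tested.

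Grm3, which encodes the group II receptor mGlu3, showed the one separation of the groups (mm10 chromosome 5, 9485541 to 9725170, minus strand, 3049 exon bases in 1 annotated transcript). It read 19.2, 19.6 and 17.11 FPKM in KO-labelled replicates 1, 2 and 3, against 15.5, 17.06 and 13.5 FPKM in WT replicates 1, 2 and 3. All 3 KO-labelled values lay above all 3 WT values, as in 4.17% of all genes tested. The lowest KO-labelled and the highest WT library nearly touched. Their exact Poisson 95% intervals, which cover counting error only, ran from 16.3 to 17.9 FPKM in KO-labelled replicate 3 (1869 reads) and from 16.2 to 17.9 FPKM in WT replicate 2 (1596 reads). The KO-labelled mean of 18.6 ± 1.33 FPKM was 21.5% above the WT mean of 15.3 ± 1.79 FPKM (SD, n = 3 each).

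For Grm3 the difference was 0.28 ± 0.095 log2 units (SE), with 0.052 and 0.50 as the 95% bounds. The limma p was 0.0227 unadjusted and 0.999 adjusted over all genes, and the two-sided exact permutation p was 0.1, the smallest that 3 against 3 allows. Over 18 other settings the sign was kept in all 18 and the unadjusted p was under 0.05 in 14. Most of the 18 refit the same 6 libraries and are not independent checks. Changed filters, the fit without a variance trend and the replicate block cannot change an estimate, so the sign could not turn there. The limma unadjusted p was 0.0165 without KO-labelled replicate 3, 0.0472 without WT replicate 1 and 0.00813 without WT replicate 2. The 4 exceptions all left out libraries. They were without KO-labelled replicate 1 (0.0652), without KO-labelled replicate 2 (0.0755), without WT replicate 3 (0.0530) and without both WT replicate 3 and KO-labelled replicate 1. In the last of these it was 0.17 log2 units, bounds -0.058 and 0.39 (limma unadjusted p = 0.114), which is smaller than with all 6 libraries by more than 1.5 times. Adjusted p ran from 0.472 to 1.0 over the same settings.

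Astrocyte markers were set beside Grm3. The 7 markers summed to 398.7, 353.2 and 345.8 FPKM in KO-labelled replicates 1, 2 and 3, against 408.5, 380.9 and 357.7 FPKM in WT replicates 1, 2 and 3. The sums of the groups overlapped. Aldoc made up most of each sum, at 257.2, 220.4 and 214.0 FPKM in the KO-labelled libraries, against 267.0, 243.7 and 211.4 FPKM in WT. The sum therefore says little of the other markers. The KO-labelled group was higher for 2 of 7 and lower for 5 of 7, and 0 passed the adjusted threshold. Aldh1l1, a folate enzyme, read 15.1, 13.0 and 13.8 FPKM in the KO-labelled libraries, against 12.8, 11.7 and 11.3 FPKM in WT. Gja1, the gap junction protein connexin, read 12.6, 11.8 and 11.7 FPKM in the KO-labelled libraries, against 11.41, 11.34 and 11.35 FPKM in WT. These were the 2 of 7 markers with all KO-labelled libraries above all WT, against 4.17% of all genes tested. Gfap, the intermediate filament of astrocytes, pointed the other way, at 35.1, 29.4 and 30.6 FPKM in the KO-labelled libraries, against 36.6, 34.7 and 38.6 FPKM in WT. At an unadjusted limma p under 0.05 stood 2 of 7, Aldh1l1 and Gfap, in opposite directions, against 3.82% of all genes. The other markers, Aqp4, Gjb6, Aldoc and Slc1a3, had log2 fold changes of -0.0044, -0.12, -0.060 and -0.069. The part of astrocyte content in the Grm3 values was not tested, nor was that of striatal, dentate or immediate early genes, whose summed levels were the lowest or the highest in WT replicate 3, the library lowest in Grm3. Aldh1l1, Gja1 and Gfap were picked from the list after their values were seen.

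Grm2 encodes mGlu2, the other group II receptor, found mostly on the axons of excitatory neurons (mm10 chromosome 9, 106643095 to 106656082, minus strand, 4894 exon bases). It read 15.52, 14.87 and 14.71 FPKM in KO-labelled replicates 1, 2 and 3, against 13.93, 14.30 and 15.98 FPKM in WT replicates 1, 2 and 3. Its highest library was WT replicate 3, the library in which Grm3, Grm4, Grm5 and Grm8 were each at their lowest. The difference of 0.030 log2 units had a 95% interval from -0.12 to 0.18 (limma adjusted p = 0.999), and 0.065 with an interval from -0.060 to 0.19 without WT replicate 3 and KO-labelled replicate 1. Set against each other, Grm3 over Grm2 gave FPKM ratios of 1.24, 1.32 and 1.16 in the KO-labelled libraries, against 1.11, 1.19 and 0.843 in WT. WT replicate 3 was the 1 library in which Grm2 exceeded Grm3, and the ratios of the groups overlapped. An antisense gene, Gm28111, shares 470 exon bases with Grm2 in GENCODE M21 and read at most 0.106 FPKM. No source used here says whether reads were counted by strand, and without strand the reads of such a pair cannot be told apart.

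**Figure D2:**
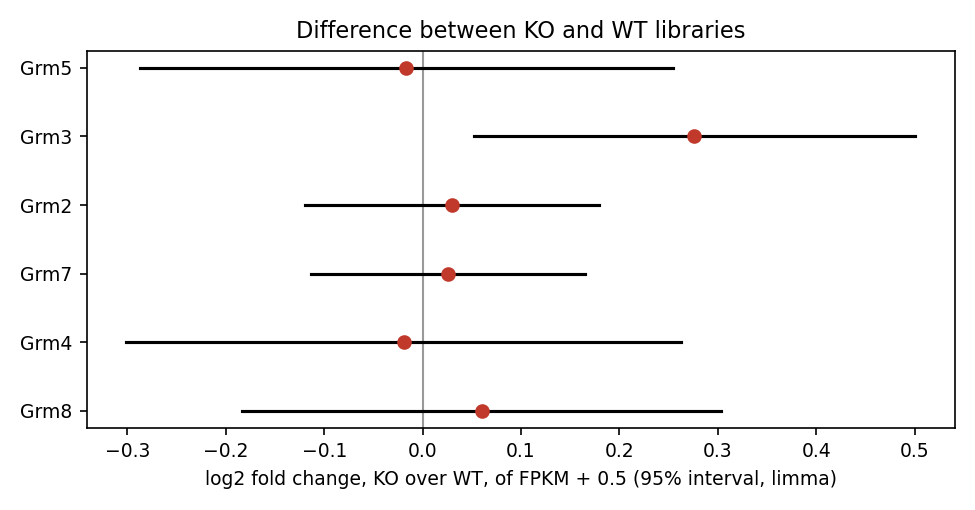
Log2 fold change of FPKM + 0.5, KO-labelled over WT, for the 6 receptor genes, with points for the limma estimate and lines for its 95% interval. The interval for Grm3 runs from 0.052 to 0.50, and the other intervals include 0.

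The promoters of the group II pair are shown because Grm3 was the receptor whose groups separated and Grm2 its closest relative by signalling that did not separate. RefSeq promoter windows on GRCm38.p6 (mm10), from 250 bases before to 50 after the RefSeq start, were on hand for 4 of the 6 genes. The Grm3 window lies wholly upstream of the Grm3 gene as counted here, which begins at 9725170 on the minus strand. Capitals mark GGGCGG, the core of the GC box read by Sp1-family factors, searched on both strands, and GGGCGG copies may adjoin or overlap other motifs.
Grm3 chr5:9725303-9725602, minus strand: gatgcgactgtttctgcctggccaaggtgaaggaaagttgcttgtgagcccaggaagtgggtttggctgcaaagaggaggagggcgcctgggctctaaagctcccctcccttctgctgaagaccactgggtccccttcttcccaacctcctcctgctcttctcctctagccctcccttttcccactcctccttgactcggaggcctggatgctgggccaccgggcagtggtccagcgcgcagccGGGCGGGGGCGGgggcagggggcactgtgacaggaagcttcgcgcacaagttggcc
Grm2 chr9:106656060-106656359, minus strand: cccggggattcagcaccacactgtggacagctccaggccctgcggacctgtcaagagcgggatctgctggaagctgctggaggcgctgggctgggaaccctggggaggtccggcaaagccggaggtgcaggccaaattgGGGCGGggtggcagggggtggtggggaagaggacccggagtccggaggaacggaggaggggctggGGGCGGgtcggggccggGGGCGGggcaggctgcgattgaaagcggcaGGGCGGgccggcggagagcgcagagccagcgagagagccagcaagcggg
GGGCGG occurred 2 times in the Grm3 window and 4 times in the Grm2 window, all on the strand of the gene, and 35.7% of 32851 mouse promoter windows of this length hold it. The Grm3 window had 63.7% G and C with 11 CpG, and the Grm2 window 72.0% with 22 CpG, against medians of 52.7% and 7 over all windows. TATAAA, the TATA box, was in neither and is held by 13.6% of all windows on either strand. TGACGTCA, the cyclic AMP response element, was in neither and is held by 1.79%.

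The group III receptors Grm7, Grm4 and Grm8 differed from each other more than between the groups. Grm7 encodes mGlu7, a receptor of the presynaptic active zone (mm10 chromosome 6, 110645581 to 111567230, plus strand). It read 8.22, 9.32 and 8.61 FPKM in the KO-labelled libraries, against 8.522, 8.586 and 8.518 FPKM in WT. The SD was 0.56 FPKM in the KO-labelled group and 0.0381 FPKM in WT, whose nearly equal libraries lay inside the KO-labelled range. A difference of 0.026 log2 units, 95% interval -0.11 to 0.17, was found (limma adjusted p = 0.999), and 0.063 without WT replicate 3 and KO-labelled replicate 1. An antisense gene, Gm20387, shares 130 exon bases with Grm7 and read 0.826 to 1.34 FPKM.

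Grm4 encodes mGlu4, a presynaptic receptor known from cerebellar granule cells and from inputs of the basal ganglia (mm10 chromosome 17, 27422387 to 27521403, minus strand). It read 6.47, 7.12 and 7.40 FPKM in KO-labelled replicates 1, 2 and 3, against 7.43, 8.17 and 5.86 FPKM in WT replicates 1, 2 and 3. The lowest library in each group was the one low in striatal markers, and WT replicate 3 alone made the groups overlap. Between the groups the log2 fold change came to -0.019, 95% interval -0.30 to 0.26 (limma adjusted p = 0.999). Without WT replicate 3 it was -0.15, and without WT replicate 3 and KO-labelled replicate 1 it was -0.095, with an interval from -0.28 to 0.087. The sign turned under 5 of 18 other settings, some of which cannot change an estimate. Of 3 cerebellar granule cell markers, Gabra6 was at 0 in 4 libraries and below 0.03 FPKM in the other 2, and Cbln3 read at most 0.125 FPKM. The list summed to 2.96 to 3.36 FPKM in the KO-labelled group and 3.22 to 3.83 FPKM in WT. Nearly all of this sum was Neurod1, at 2.90, 3.25 and 3.30 FPKM in the KO-labelled libraries, against 3.10, 3.31 and 3.69 FPKM in WT. Whether striatal tissue had a part in the Grm4 values was not tested.

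Grm8 encodes mGlu8, another presynaptic receptor, and had the lowest level (mm10 chromosome 6, 27275119 to 28135178, minus strand). It read 2.07, 2.32 and 1.87 FPKM in the KO-labelled libraries, against 1.93, 2.21 and 1.80 FPKM in WT, from 591 to 765 reads each. Both groups spanned nearly the same range. Grm8 differed by 0.060 log2 units, 95% interval -0.18 to 0.30 (limma adjusted p = 0.999), and 0.010 without WT replicate 3 and KO-labelled replicate 1.

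**Figure D3:**
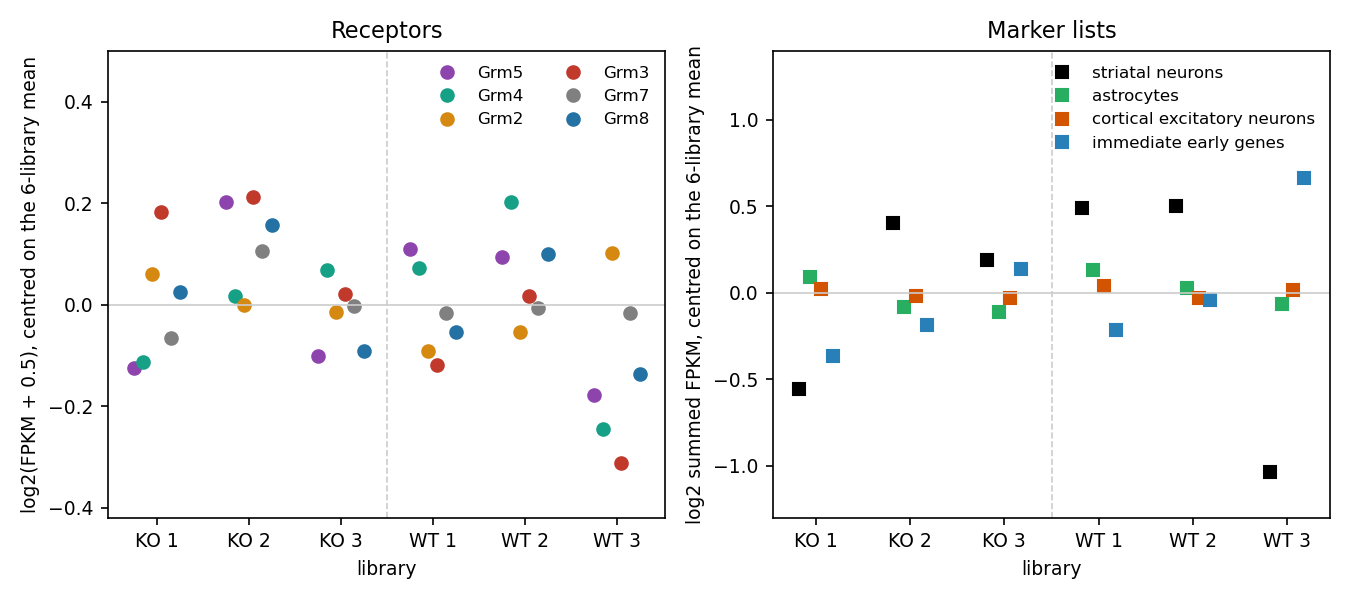
Left, log2(FPKM + 0.5) of the 6 receptor genes, and right, log2 summed FPKM of 4 marker lists, each centred on its mean over the 6 libraries and plotted for KO-labelled replicates 1 to 3 and then WT replicates 1 to 3. Striatal markers are low in KO-labelled replicate 1 (-0.56) and WT replicate 3 (-1.03), where Grm4 stands at -0.11 and -0.25, Grm5 at -0.12 and -0.18, and Grm2 at 0.059 and 0.10 in that order.

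Genes with the most similar pattern over the 6 libraries were found by the root mean square difference of centred log2(FPKM + 0.5) among 11845 other protein-coding genes averaging 1 FPKM or more. These are descriptions over 6 libraries. The closest genes were picked as the smallest differences among so many, so values below that of the median gene were fixed in advance. Whether differences between libraries such as those in striatal markers entered these profiles was not tested. Grm5 was closest to Cnr1, the cannabinoid receptor of nerve terminals, with a difference of 0.021 log2 units, where the median gene differed by 0.16. Cnr1 read 26.80, 34.13 and 27.98 FPKM in the KO-labelled libraries, against 31.31, 32.04 and 26.66 FPKM in WT. Rhbdl3 and 1700001L19Rik came next for Grm5, at 0.024 and 0.029. Grm4 was closest to Cdyl2, Chst11 and Slc32a1, the last being the vesicular transporter of GABA, at 0.024, 0.034 and 0.042. Grm3 was closest to Rftn1, Iqgap2 and Nkd1, at 0.039, 0.049 and 0.052, where the median gene differed by 0.20. Grm2, Grm7 and Grm8 varied by 0.19, 0.17 and 0.29 log2 units over the 6 libraries. Their closest genes were Ccdc82, Arnt2 and Rps6kb1 for Grm2, Med13, Dnajc13 and Wdfy1 for Grm7, and Rock1, Iba57 and Rab27b for Grm8.

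The genes that supply the ligand, hold the receptors in place and carry their signal did not pass the test either. Of 66 such genes tested, 0 passed the adjusted threshold and 0 had an unadjusted p under 0.05, against 3.82% of all genes. The KO-labelled group was higher for 27 and lower for 39, with log2 fold changes from -0.17 to 0.30. The groups did not overlap for 5 (7.58%), against 8.87% of all genes. All named genes in the paragraphs on these lists had a limma adjusted p of 0.999.

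Among genes of glutamate supply and removal, 5 of 12 were higher and 7 lower, with a median log2 fold change of -0.025. Glul, the astrocytic glutamine synthetase and the most abundant of the list, read 497.5, 431.5 and 427.6 FPKM in the KO-labelled libraries, against 521.4, 511.2 and 453.6 FPKM in WT. Folh1 encodes the peptidase that cleaves N-acetylaspartylglutamate, a peptide ligand of mGlu3. It read 1.42, 1.52 and 0.92 FPKM in the KO-labelled libraries, against 1.04, 1.00 and 0.78 FPKM in WT, and the groups overlapped. Slc17a8, the least abundant vesicular glutamate transporter here, averaged 1.12 ± 0.118 FPKM in the KO-labelled libraries and 0.854 ± 0.217 FPKM in WT (SD, n = 3 each).

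Scaffolds and synaptic partners were higher for 6 of 14 and lower for 8, with a median of -0.029, which turned to 0.029 without KO-labelled replicate 1, 0.014 without WT replicate 3 and 0.044 without both. Grasp (also called tamalin), an adaptor that binds group I receptors, averaged 28.4 ± 2.57 FPKM in the KO-labelled libraries and 31.9 ± 2.23 FPKM in WT, a log2 fold change of -0.17. Grip1, a PDZ scaffold of glutamate receptors, was the 1 partner with all KO-labelled libraries higher, at 2.49, 2.71 and 2.71 FPKM, against 2.13, 2.46 and 2.34 FPKM in WT. Dlgap1, which links Shank to the postsynaptic density, averaged 28.6 ± 1.41 FPKM in the KO-labelled libraries and 30.0 ± 0.454 FPKM in WT. The most abundant partner was Ncdn, the neuronal protein neurochondrin that binds mGlu5, at 426.2 ± 17.4 FPKM in the KO-labelled libraries and 451.4 ± 39.1 FPKM in WT.

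The Gq and phospholipase C arm downstream of group I had 7 of 13 genes higher and 6 lower, with a median of 0.017. That median turned to -0.0028 without KO-labelled replicate 1, -0.0044 without KO-labelled replicate 2 and -0.013 without WT replicate 3 and KO-labelled replicate 1. Daglb, a diacylglycerol lipase, read 4.35, 4.36 and 4.23 FPKM in the KO-labelled libraries, against 4.68, 4.63 and 4.66 FPKM in WT, so all KO-labelled values were lower. The difference was -0.099 log2 units, 95% interval -0.23 to 0.027. Gna11, a Gq-class alpha subunit, averaged 32.3 ± 0.506 FPKM in the KO-labelled libraries and 33.5 ± 1.29 FPKM in WT. Plcb2, the least abundant phospholipase C beta here, averaged 0.724 ± 0.118 FPKM in the KO-labelled libraries and 0.593 ± 0.124 FPKM in WT. Prkcb, protein kinase C beta and the most abundant of the genes counted here, averaged 73.3 ± 1.13 FPKM in the KO-labelled libraries and 70.5 ± 3.43 FPKM in WT.

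For the Gi and Go arm of groups II and III, 7 of 18 genes were higher and 11 lower, with a median of -0.013. Adcy2, an adenylate cyclase, read 42.6, 41.4 and 41.6 FPKM in the KO-labelled libraries, against 40.6, 41.3 and 39.1 FPKM in WT. Kcnj6, a potassium channel subunit opened by G protein beta gamma, read 2.71, 2.90 and 2.71 FPKM in the KO-labelled libraries, against 2.64, 2.58 and 2.34 FPKM in WT. These were the 2 genes of the arm with all KO-labelled libraries higher. Adcy3 averaged 9.51 ± 0.615 FPKM in the KO-labelled libraries and 8.80 ± 0.208 FPKM in WT, and Gnb1, the most abundant of the arm, 139.5 ± 4.98 and 146.0 ± 5.84 FPKM in the same groups. Adcy5, the cyclase of striatal projection neurons, was chosen after its values were seen. It read 37.05, 60.17 and 51.95 FPKM in KO-labelled replicates 1, 2 and 3, against 58.72, 59.20 and 32.35 FPKM in WT replicates 1, 2 and 3, with its lowest 2 values in the libraries low in striatal markers.

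Genes that switch the receptors off were higher for 2 of 9 and lower for 7, with a median of -0.030, which was -0.00013 without KO-labelled replicate 1 and turned to 0.014 without that library and WT replicate 3. Rgs7, a regulator that speeds the shutting of Go, read 12.8, 12.1 and 12.4 FPKM in the KO-labelled libraries, against 13.0, 13.2 and 14.6 FPKM in WT, with all KO-labelled values lower. That difference was -0.12 log2 units, 95% interval -0.26 to 0.013. Rgs2, which acts on Gq, averaged 13.2 ± 1.15 FPKM in the KO-labelled libraries and 14.9 ± 2.06 FPKM in WT. Rgs4, the most abundant of the list, averaged 144.2 ± 2.54 FPKM in the KO-labelled libraries and 142.2 ± 16.2 FPKM in WT. Arrb1, an arrestin, averaged 32.03 ± 0.163 FPKM in the KO-labelled libraries and 31.10 ± 1.20 FPKM in WT.

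**Figure D4:**
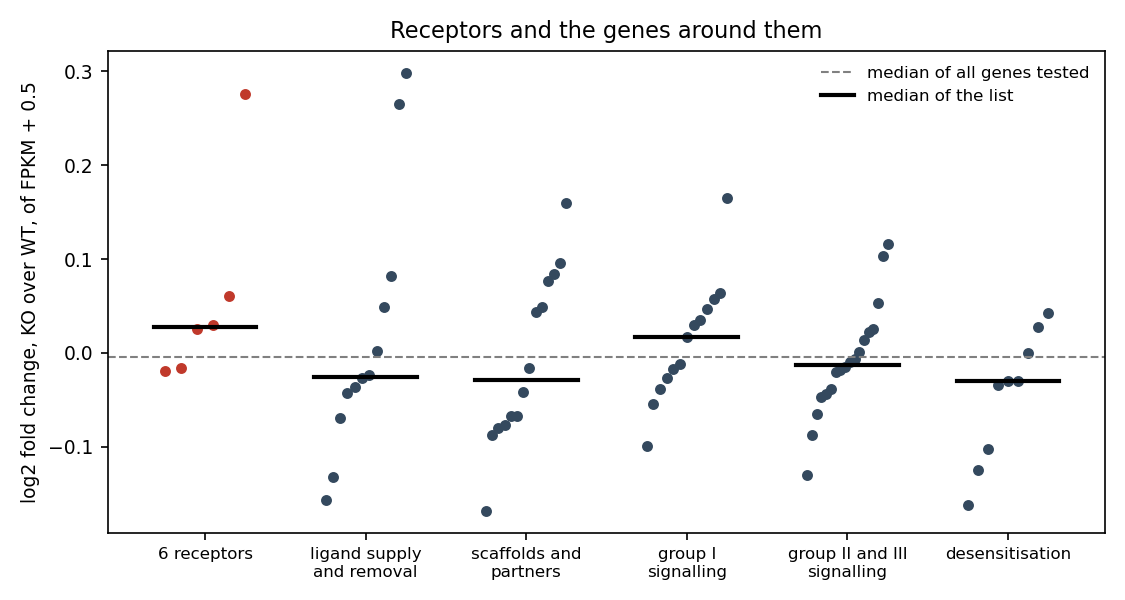
Log2 fold change of FPKM + 0.5, KO-labelled over WT, for the 6 receptor genes and the 5 lists around them, 1 point per gene tested. Solid bars mark each list's median and the dashed line the median of all genes tested (-0.0042); list medians run from -0.030 to 0.017 and that of the receptors is 0.028.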

How the data were processed

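RNA of cerebral cortex from 3 libraries labelled Fam69c knockout and 3 WT libraries was extracted with Trizol and made into libraries with an Illumina TruSeq RNA kit, per the labels' protocols. The submitters' processing notes name Bowtie and mm10; the counting program, annotation release and handling of strand are not given in any source used here. The authors deposited 1 table of FPKM values, 54532 genes by 6 libraries. Exon lengths of the 6 receptor genes equal those of GENCODE M21, which gave the exon overlaps.

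Computed here: the 15694 genes averaging 0.5 FPKM or more entered as log2(FPKM + 0.5). Fold changes refer to this scale, on which changes of low genes are understated. limma 3.58.1 (R 4.3.3) with a variance trend compared KO-labelled with WT libraries, two-sided, with Benjamini-Hochberg adjustment over all genes tested and 0.05 as the threshold. Values given with ± are means with the SD over libraries unless marked SE. Multiplied by gene length, 100% of values were whole multiples of 1 read within 0.001; voom on these recovered reads called 0 genes, with 533 at an unadjusted p under 0.05. Tested on simulated data for this comparison over 15694 genes with 200 changed, limma recovered 82.6% of 2-fold and 96.1% of 4-fold changes. On average 10.9 of 189.6 calls were false. The simulated noise was independent between genes, without shifts shared by a library, and no smaller changes were planted. The recovery therefore does not speak to differences as small as those of the receptors. Library pairs of a group differed by at least 2.89 times sampling noise (median chi-square).

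The receptors and the gene and marker lists were chosen with earlier results of these data known. All 6 receptors are given; from each of the 5 pathway lists, the 3 genes with the smallest p and the most abundant were named. Some genes of the lists are not reported here and enter no list count. Alternatives were pseudocounts, filters, scalings, variance and weight settings, voom, a replicate block and leaving out libraries.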

Additional observations from a re-analysis of the deposited data

How the results depend on the processing

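With the other 18 settings 0 of the 6 receptor genes passed the adjusted threshold. Over all genes the count stayed at 0 except for 1 gene with protein-coding genes scaled to equal sums (Rps27rt) and 1 without both WT replicate 3 and KO-labelled replicate 1 (Gm47283); it ran from 0 to 0 when single libraries were left out. Genes at an unadjusted p under 0.05 numbered 599, against 1214 with no filter, 1420 with sample weights, 901 without KO-labelled replicate 1, 1023 without WT replicate 3 and 2092 without both.

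Grm3 kept its sign throughout, with log2 fold changes from 0.17 to 0.35 (0.19 to 0.35 when single libraries were left out). For every receptor the filters, the variance trend and the replicate block could not change the estimate. Signs turned for the others, all with intervals that include 0. Leaving out single libraries, values ran from -0.0085 to 0.087 for Grm2, -0.15 to 0.077 for Grm4, -0.12 to 0.042 for Grm5, -0.021 to 0.065 for Grm7 and -0.0030 to 0.13 for Grm8. Under other scalings Grm4 turned to 0.0020 (TPM) and 0.0054 (protein-coding genes, equal sums), and Grm5 to 0.0047, 4.7e-05 (upper quartile) and 0.0086. With sample weights Grm5 was 0.0031. The medians of the lists for scaffolds, the Gq arm and desensitisation turned sign when libraries were left out. The Gq arm's also turned with a filter of 1 FPKM (-0.012), and that of the Gi and Go arm turned to 0.0091 (TPM), 0.0044 (upper quartile), 0.013 (protein-coding genes, equal sums) and 0.0014 (voom). The cause of these turns was not tested.

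Replicate numbers are shared by the groups, and no source used here says that same-numbered libraries were paired, so they were not taken as pairs. Deviations of same-numbered libraries correlated at 0.082, 0.013 and 0.21, and those of the other combinations at -0.16 to 0.11. With so few libraries these values cannot decide whether there were pairs. With a replicate block 0 genes passed, 837 had an unadjusted p under 0.05, and Grm3 had an unadjusted limma p of 0.00268 and an adjusted p of 0.895. Each replicate number occurs once in each group, so this block cannot change an estimate and bears only on its SE and p. The estimates of the other receptors were therefore those of the main fit: 0.030 for Grm2, -0.019 for Grm4, -0.017 for Grm5, 0.026 for Grm7 and 0.060 for Grm8.

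With 3 libraries a group, the median gene's 95% interval reached 0.21 log2 units to either side.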
